A study of Mus musculus with 35 samples.

Results

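The activity-induced synaptic effectors described here are 10 genes of the 32544 in the deposited tables, taken by symbol: Arc, Homer1, Bdnf, Nptx2, Nptx1, Rgs4, Plk2, Ntrk2, Pcsk1 and Rheb. All 10 passed the filter on low counts in every comparison. Their RNA was measured in the hippocampus of mice 24 hours or 2 weeks after kainic acid (KA) was injected into the amygdala (IAKA), and of mice injected with PBS at the same site. The study's methods describe young adult male C57BL/6JOlaHsd mice without a transgene. KA, a glutamate receptor agonist, starts status epilepticus, lorazepam was given afterwards to limit it, and spontaneous seizures are present by the later time. Each library came from 1 mouse and was made either from total RNA (input) or from polyadenylated RNA pulled down with an antibody against N6-methyladenosine (m6A), a methyl mark on adenosines of mRNA. There were 5 IAKA and 3 PBS m6A libraries at 24 hours, and 6 IAKA and 5 PBS m6A libraries at 2 weeks. Of the 16 labelled input libraries, 13 held 100000 counts or more and were used, which left 3 of IAKA mice and 1 of a PBS mouse for the earlier time and 6 and 3 for the later. Levels are given as counts per 1000000 counts of the library (CPM), which are not corrected for gene length, so levels are compared between libraries and not between genes.

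Neurons that fire strongly switch on a first wave of transcription factors and, with them, a set of genes whose products act at the synapse itself. These effectors are secreted, sit in the postsynaptic density or act in signalling cascades, and they adjust receptor number, spine structure and growth factor supply to recent activity. In the hippocampus Arc, Bdnf, Nptx2 and the short form of Homer1 are well known to be induced by seizures, whereas Ntrk2 and Rheb are expressed in neurons at rest as well.

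A promoter entry was available for 7 of the 10 members in RefSeq (GRCm38.p6), with 14 promoters between them, each from 250 bases before to 50 after a transcription start. Arc, Nptx1 and Nptx2 had no entry and were not searched. The stretches below are shown because they hold the letters that transcription factors of neuronal activity are known to bind, which are in capitals. The cAMP response element TGACGTCA, searched on both strands, was in 2 of the 14 promoters, against 1.79% of all 32851 promoters. These were the promoter of Pcsk1, 78 bases before the start, and that of Plk2, 62 bases before the start.
Pcsk1, chr13:75089768-75089797, plus strand: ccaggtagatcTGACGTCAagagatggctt
Plk2, chr13:110394944-110395043, plus strand: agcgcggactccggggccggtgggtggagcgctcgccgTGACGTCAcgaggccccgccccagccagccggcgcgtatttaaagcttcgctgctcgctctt

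The shorter core TGACG, which every full element also holds, was in 6 of the 14 promoters, 1 each of Rgs4, Bdnf, Rheb, Pcsk1, Homer1 and Plk2, against 20.8% of all promoters. The Homer1 promoter had 3 matches, 56, 40 and 14 bases before the start. In Bdnf the core was on the minus strand, 35 bases before the start of the promoter labelled 3 below, and reads CGTCA below. An AP-1 site, TGANTCA, was in 1 of the 14 promoters, labelled Bdnf promoter 2 below, 152 bases before the start, against 7.81% of all promoters. The serum response element, known as the CArG box, was in 0 of the 14, against 1.63% of all promoters. A match is a description of the letters and not evidence of binding, and the gene-level counts pool all Bdnf starts and the short and long forms of Homer1.
Homer1, chr13:93303657-93303756, plus strand: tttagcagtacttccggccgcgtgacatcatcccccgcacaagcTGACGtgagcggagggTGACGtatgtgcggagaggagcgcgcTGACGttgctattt
Bdnf promoter 3, chr2:109692388-109692417, plus strand: atatgacagctcaCGTCAaggcagcgtgga
Bdnf promoter 2, chr2:109676868-109676897, plus strand: tacccacaaaaaTGAATCAaggtaatttca

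Total counts ran from 1652933 to 34564536 in the 19 m6A libraries and from 3057578 to 12694434 in the 13 input libraries used. The names of the m6A data columns start with 3, 4 or 5, called the library set here. All libraries of set 3 came from IAKA mice, so treatment can be compared within set 4 at 24 hours (2 IAKA and 2 PBS mice) and within set 5 at 2 weeks (3 and 3). Mouse numbers fell into the ranges 1 to 9 and 21 to 98. The PBS m6A libraries of mice 21 to 98 were all of set 4 and those of mice 1 to 9 all of set 5, so in PBS mice the library set and the mouse number range cannot be told apart. The summed level of 8 markers of excitatory neurons, the cells in which most of the members are known to be expressed, differed by this range. In PBS m6A libraries it lay between 5941 and 6922 CPM in mice 21 to 98 and between 2750 and 3434 CPM in mice 1 to 9. In IAKA m6A libraries it lay between 4082 and 4967 CPM in mice 21 to 98 and between 1301 and 3261 CPM in mice 1 to 9. The lowest value was that of IAKA mouse 8 at 24 hours, whose astrocyte marker sum was also the lowest of its group, 1098 CPM against a highest value of 5244 CPM. None of the excitatory neuron markers was at 0 in any library used.

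None of the 10 members differed between IAKA and PBS mice at an adjusted P of 0.05 (edgeR's quasi-likelihood test, Benjamini-Hochberg over all genes tested). This held for m6A libraries at 24 hours, where 0.00607% of 16470 genes passed, and at 2 weeks, where 0% passed. It also held for input libraries at 24 hours and at 2 weeks, with 0% of genes passing in each. The member nearest to the threshold was Nptx2, with an adjusted P of 0.083 in m6A libraries at 24 hours and the smallest unadjusted P of the 10 in all 4 comparisons. At an unadjusted P under 0.05 in edgeR, 4 members stood higher in IAKA mice in the m6A libraries at 24 hours (Nptx2, Rgs4, Pcsk1 and Bdnf), against 4.02% of all genes higher and 1.29% lower. At 2 weeks 2 members did so (Nptx2 and Bdnf), against 2.85% higher and 2.16% lower. In input libraries 2 members did so at 24 hours (Nptx2 and Arc), against 4.99% higher and 4.24% lower. At 2 weeks 4 did so (Nptx2, Arc, Bdnf and Nptx1), against 8.41% higher and 5.69% lower. No member stood lower at that level in these 4 fits. Libraries of the 2 kinds came largely from the same mice, so these are not independent comparisons, and in bulk hippocampus fewer cells of a type and less RNA per cell cannot be told apart.

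Over the 10 members, the median log2 fold change (IAKA over PBS) was 0.78 in m6A libraries at 24 hours, 0.19 in m6A libraries at 2 weeks, 0.53 in input libraries at 24 hours and 0.27 in input libraries at 2 weeks. The medians over all genes tested were 0.08, -0.00, 0.27 and 0.02. For input at 24 hours, scaling by library size alone moved the median of all genes to -0.04 and that of the members to 0.21, with 8 of 10 above 0. The number of members above 0 was 9, 6, 9 and 9 of 10 in that order. Other tools gave other counts. DESeq2 called 2 members in the m6A libraries at 24 hours (0.947% of all genes), 1 at 2 weeks (0.0928%), 0 in input libraries at 24 hours (1.14%) and 1 at 2 weeks (0.822%). Voom with sample quality weights called 5 members (6.80% of all genes), 0 (0.0124%), 0 (6.10%) and 2 (2.49%). The members called are named with their values below.

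Markers of some other cell types and of neighbouring tissue also lay above 0 at 24 hours, and those of others did not. In m6A libraries 8 of 8 choroid plexus markers (median log2 fold change 1.15) and 6 of 6 thalamus markers (0.56) did so. So did 3 of the 4 blood markers tested (0.53), 6 of 8 endothelial cell markers (0.34) and 6 of 8 microglia markers (0.31). In input libraries 8 of 8 endothelial cell markers (1.72), 5 of 5 blood markers (1.87), 6 of 6 thalamus markers (0.79), 8 of 8 choroid plexus markers (0.77) and 6 of 8 microglia markers (0.93) did so. Oligodendrocyte markers had 6 of 8 below 0 in m6A (-0.44) and in input libraries (-0.50). Astrocyte markers had 5 of 8 below 0 in m6A (-0.28) and 5 of 8 above 0 in input libraries (0.24). Inhibitory neuron markers had 5 of 8 above 0 in m6A (0.12) and 6 of 8 below 0 in input libraries (-0.24). In CPM summed over each list, choroid plexus markers in m6A libraries had 65.4 to 631 in PBS and 60.3 to 1049 in IAKA mice, and thalamus markers 66.2 to 74.9 and 61.7 to 137.9, so the groups overlapped. In input libraries endothelial cell markers summed to 909 CPM in the PBS mouse and 472.8 to 1219 CPM in IAKA mice, and thalamus markers to 65.6 CPM and 82.4 to 98.2 CPM. Microglia markers at 2 weeks had 7 of 8 above 0 in m6A (0.72) and 8 of 8 in input libraries (0.86). Astrocyte markers had 7 of 8 above 0 in both at that time (0.29 and 0.50). Oligodendrocyte markers then had 5 of 8 below 0 in m6A (-0.09) and 7 of 8 above 0 in input libraries (0.25). None of these markers passed an adjusted P of 0.05 in edgeR, and their part in the members' values was not tested.

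**Figure D1:**
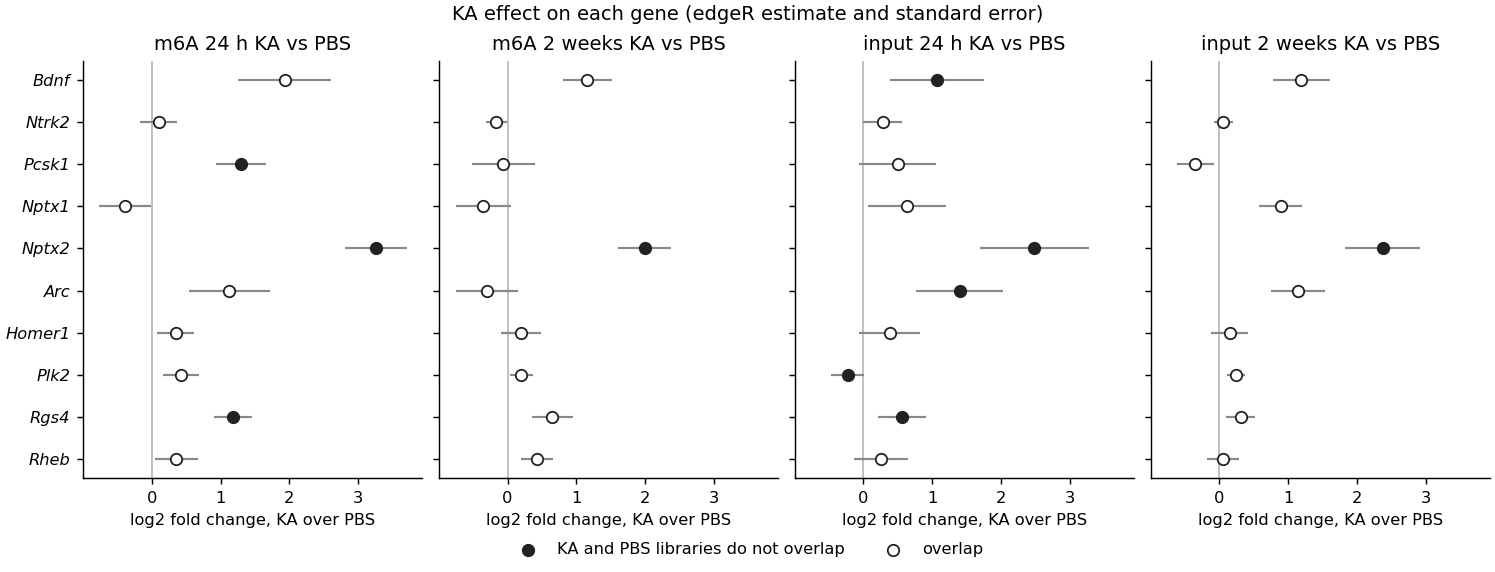
Log2 fold change (IAKA over PBS) of each of the 10 members with its standard error in edgeR's fit, for m6A and input libraries at 24 hours and 2 weeks. Filled points mark members whose IAKA and PBS libraries did not overlap. Nptx2 is farthest to the right in all 4 comparisons, from 1.99 to 3.25, and is filled in all of them.

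Nptx2 encodes neuronal pentraxin 2 (Narp), a secreted protein that gathers AMPA receptors at excitatory synapses, many of them on interneurons (chr5:144545887-144557478). In m6A libraries at 24 hours its level was 5.16, 6.30 and 7.68 CPM in PBS mice and 31.8, 39.3, 52.5, 64.7 and 127.7 CPM in IAKA mice. Every IAKA library lay above every PBS library, as it did for 2.62% of all genes tested. Nptx2 differed by a log2 fold change of 3.25 (SE 0.45), or 9.54-fold, with an adjusted P of 0.083 and an unadjusted P of 2.8e-05 in edgeR.

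At 2 weeks the 5 PBS mice had 7.27, 9.12, 9.16, 10.5 and 13.75 CPM of Nptx2 in m6A libraries, and the 6 IAKA mice ran from 13.77 CPM over a median of 35.9 CPM to 73.4 CPM. The groups met almost at 1 point, between IAKA mouse 6 and PBS mouse 78, and no other member was without overlap here, as were 0.260% of all genes with IAKA higher. The difference was 1.99 on the log2 scale (SE 0.38), or 3.98-fold, with an adjusted P of 0.43 and an unadjusted P of 0.00012 in edgeR.

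In total RNA, too, Nptx2 levels did not overlap. At 24 hours the PBS library had 7.33 CPM and the IAKA libraries 26.9, 33.7 and 37.3 CPM. At 2 weeks the PBS libraries had 5.13, 6.12 and 8.00 CPM and the IAKA libraries ran from 10.6 CPM over a median of 28.7 CPM to 63.4 CPM. The log2 fold changes were 2.48 (SE 0.79, adjusted P 0.39) and 2.37 (SE 0.54, adjusted P 0.24) in edgeR, or 5.57-fold and 5.17-fold. With 1 PBS library at 24 hours, that library is assumed to vary like the other input groups. Of all genes tested, 10.9% had every IAKA input library above the PBS library at 24 hours, and 2.64% at 2 weeks.

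The Nptx2 call in the m6A libraries at 24 hours turned on the setting. The log2 fold change of Nptx2 stayed above 0 but varied, from 2.84 without IAKA mouse 79 to 3.96 within library set 4. DESeq2 gave an adjusted P of 6.3e-10 and voom 5.6e-05. Within library set 4 alone Nptx2 was at 3.96 on the log2 scale (adjusted P 0.017, edgeR, 2.11% of genes called), and with the mouse number range as a block it was 3.23 (adjusted P 0.027, edgeR, 0.340% called). Without IAKA mouse 8 it was 3.39 (adjusted P 0.017, edgeR). With the library set as a block over all 8 libraries it was 3.94 and was not called (adjusted P 0.2, edgeR, 0% called). The adjusted P with 1 library left out ran up to 0.64 in edgeR, and mouse 8 was the only library whose removal gave a call. At 2 weeks DESeq2 called Nptx2 in m6A libraries (adjusted P 0.00081) and in input libraries (adjusted P 0.00048), and voom called it in input libraries (adjusted P 0.048).

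**Figure D2:**
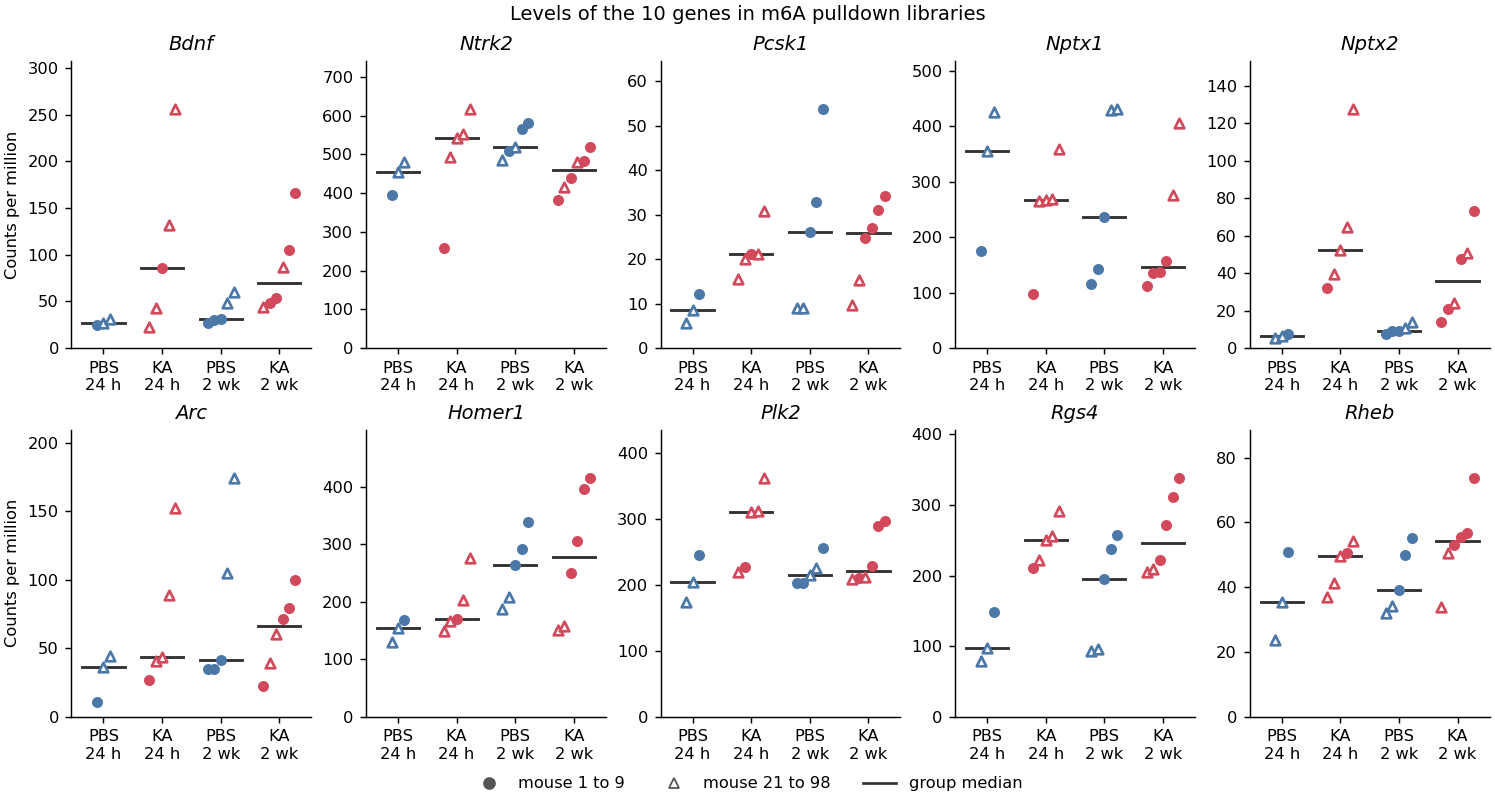
Level of each member in the 19 m6A libraries, in CPM, by treatment and time, with 1 point per mouse and a bar at the group median. Filled circles are mice 1 to 9 and open triangles mice 21 to 98. Nptx2 separates the IAKA from the PBS libraries at both times, and Nptx1 separates the circles from the triangles in every group.

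Nptx1, the related pentraxin that is known to be made more steadily (chr11:119538719-119547820), went with the mouse number. In PBS m6A libraries its level lay between 356 and 432 CPM in mice 21 to 98 and between 116 and 237 CPM in mice 1 to 9. In IAKA m6A libraries it lay between 265 and 406 CPM and between 96.9 and 157 CPM. In IAKA input libraries it lay between 216 and 316 CPM and between 107 and 185 CPM. The ranges did not overlap in any of the 3, and the part of the excitatory marker sum, which in m6A libraries moved with the same mice, was not tested.

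By treatment, the m6A libraries at 24 hours had 174, 356 and 425 CPM of Nptx1 in PBS mice and 96.9, 265, 267, 270 and 359 CPM in IAKA mice, and the groups overlapped. At 2 weeks PBS mice had 116, 143, 237, 429 and 432 CPM and IAKA mice 113 to 406 CPM (median 147 CPM). These gave log2 fold changes of -0.39 (SE 0.38) at 24 hours and -0.35 (SE 0.40) at 2 weeks, with adjusted P of 0.98 and 0.89 in edgeR. With the mouse number range as a block the value at 24 hours was -0.51 (SE 0.21, unadjusted P 0.037, adjusted P 0.40, edgeR), and within library set 4 it was -0.66 (SE 0.13, unadjusted P 0.0017, adjusted P 0.061, edgeR). Voom gave -0.60 (adjusted P 0.083). In input libraries at 2 weeks the 3 PBS mice had 86.7, 112 and 133 CPM and the 6 IAKA mice 128 to 312 CPM (median 167 CPM). The 2 groups differed by 0.89 on the log2 scale (SE 0.31, unadjusted P 0.015, adjusted P 0.28, edgeR), and the 3 PBS mice were all of the number range 1 to 9. At 24 hours the input level was 165 CPM in the PBS mouse and 107, 216 and 316 CPM in the IAKA mice (log2 fold change 0.63, SE 0.57).

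Bdnf encodes brain-derived neurotrophic factor, the secreted ligand of the receptor encoded by Ntrk2 (chr2:109674700-109727043). At 24 hours the m6A libraries of the PBS mice had 25.0, 27.0 and 31.5 CPM, and those of the IAKA mice 22.4 (mouse 98), 42.9 (mouse 67), 85.9 (mouse 8), 131.5 (mouse 97) and 256.1 CPM (mouse 79). IAKA mice 79 and 97, the only IAKA mice of library set 4 at this time, had the highest values, and mouse 98 lay below all PBS mice. Bdnf thus had a log2 fold change of 1.93 (SE 0.67, unadjusted P 0.016, adjusted P 0.68, edgeR). Within set 4 it was 2.61 (adjusted P 0.022, edgeR), while with the library set as a block over all 8 libraries the same value was not called (adjusted P 0.71, edgeR). DESeq2 did not call it (adjusted P 0.13), and voom called Bdnf over all 8 libraries (1.80, adjusted P 0.034).

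At 2 weeks Bdnf had 26.9, 29.6, 30.8, 48.7 and 59.5 CPM in the m6A libraries of PBS mice and 43.8 to 166.5 CPM (median 70.0 CPM) in those of IAKA mice. The overlap lay with the PBS mice of set 4, since all 6 IAKA libraries were above the 3 PBS libraries of set 5. Its log2 fold change at 2 weeks was 1.16 (SE 0.35, unadjusted P 0.005, adjusted P 0.87, edgeR). In input libraries Bdnf had 21.0 CPM in the PBS mouse and 22.0, 34.9 and 47.2 CPM in the IAKA mice at 24 hours (1.07, SE 0.68). At 2 weeks the values were 24.0, 30.8 and 33.1 CPM in PBS mice and 30.6 to 130.7 CPM (median 58.4 CPM) in IAKA mice (1.19, SE 0.41, adjusted P 0.28, edgeR). IAKA mice 6 and 21 had the lowest Bdnf levels of their group in both kinds of library, and mouse 7 the highest.

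Ntrk2 encodes TrkB, the BDNF receptor, which astrocytes also make in a truncated form (chr13:58806472-59133970). The m6A libraries at 24 hours had 396, 455 and 480 CPM in PBS mice and 259, 493, 542, 553 and 617 CPM in IAKA mice. The low value of Ntrk2 was that of mouse 8, and the other 4 IAKA libraries were above all PBS libraries. At 2 weeks PBS mice had 485 to 581 CPM (median 519 CPM) and IAKA mice 382 to 518 CPM (median 459 CPM), and 5 of the 6 IAKA libraries were below all PBS libraries. These gave log2 fold changes of 0.10 (SE 0.27) at 24 hours and -0.16 (SE 0.15) at 2 weeks. In input libraries the log2 fold change was 0.28 (SE 0.28) at 24 hours and 0.06 at 2 weeks, and the groups overlapped.

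Pcsk1 encodes prohormone convertase 1/3, which cleaves neuropeptide precursors in secretory granules (chr13:75089420-75134861). At 24 hours the m6A libraries of PBS mice had 5.66, 8.66 and 12.1 CPM and those of IAKA mice 15.6, 20.0, 21.1, 21.2 and 30.9 CPM. The groups did not overlap, with IAKA higher, as for 2.62% of all genes tested. The values of IAKA mice 67 and 98 rested on 42 and 33 counts. The log2 fold change was 1.30 (SE 0.36, unadjusted P 0.0045, adjusted P 0.49, edgeR). Voom called it (1.68, adjusted P 0.004). At 2 weeks PBS mice had 8.97 and 9.09 CPM (mice 78 and 50) and 26.1, 32.9 and 53.8 CPM (mice 3, 2 and 4), and IAKA mice 9.75 to 34.3 CPM (median 25.9 CPM). The PBS values fell apart by mouse number range, and the lowest IAKA values, 9.75 and 15.4 CPM, were those of mice 42 and 21. The groups overlapped, with a log2 fold change of -0.06 (SE 0.46), which was 0.39 without PBS mouse 4. In input libraries the groups overlapped, with log2 fold changes of 0.50 (SE 0.56) at 24 hours and -0.35 (SE 0.27) at 2 weeks.

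Arc encodes a protein of dendrites that drives endocytosis of AMPA receptors and whose mRNA is known to travel to active synapses (chr15:74669081-74672570). In m6A libraries at 24 hours PBS mice had 10.5, 36.4 and 44.6 CPM and IAKA mice 26.6, 40.5, 43.4, 88.6 and 152.1 CPM. The groups overlapped, the 2 highest values were those of mice 97 and 79, and the log2 fold change was 1.13 (SE 0.59; edgeR, adjusted P 0.98). At 2 weeks the highest levels were those of PBS mice, 104.9 CPM in mouse 50 and 174.5 CPM in mouse 78. The other 3 PBS mice had 34.7, 35.0 and 41.0 CPM and the IAKA mice 22.8 to 99.5 CPM (median 66.0 CPM). This gave a log2 fold change of -0.30 (SE 0.45), and it was 0.27 without PBS mouse 78 and 0.85 within library set 5.

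In total RNA, Arc had 13.7 CPM in the PBS mouse and 26.9, 29.3 and 31.1 CPM in the IAKA mice at 24 hours. At 2 weeks it had 18.8, 29.4 and 43.3 CPM in PBS mice and 28.1 to 109.0 CPM (median 68.5 CPM) in IAKA mice. IAKA mice 42 and 21, with 28.1 and 36.6 CPM, were the only ones not above every PBS mouse. Arc differed by 1.40 on the log2 scale at 24 hours (SE 0.63, unadjusted P 0.044, adjusted P 0.52, edgeR) and by 1.14 at 2 weeks (SE 0.39, unadjusted P 0.013, adjusted P 0.28, edgeR). At 2 weeks voom called Arc (1.23, adjusted P 0.044).

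**Figure D3:**
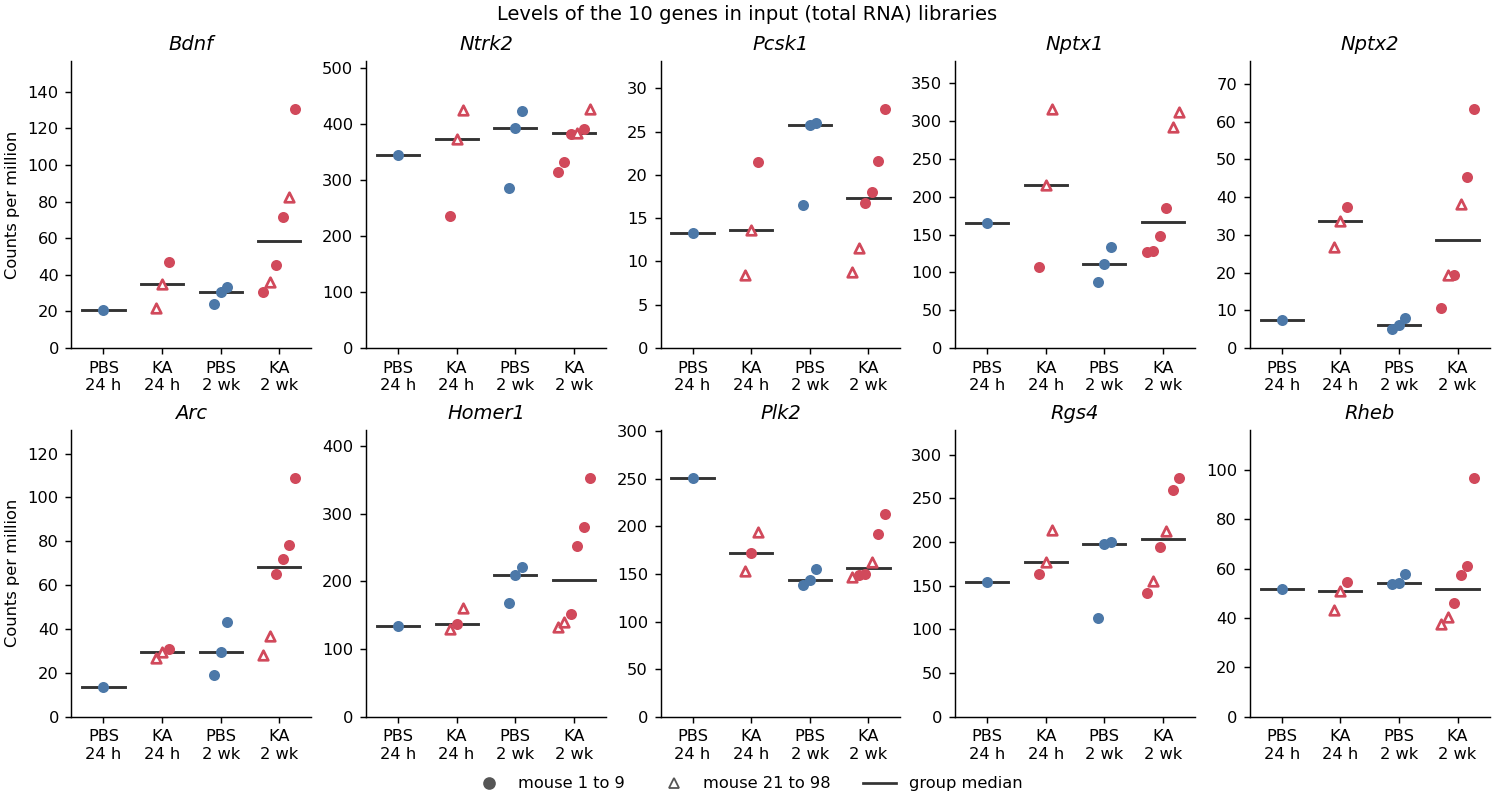
Level of each member in the 13 input libraries with 100000 counts or more, in CPM, by treatment and time, with 1 point per mouse and a bar at the group median. Filled circles are mice 1 to 9 and open triangles mice 21 to 98. Nptx2 had 5.13 to 8.00 CPM in the 4 PBS libraries and 10.6 to 63.4 CPM in the 9 IAKA libraries, and the PBS group at 24 hours is 1 mouse.

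Homer1 encodes a scaffold of the postsynaptic density that ties metabotropic glutamate receptors to their partners, a link that its short, activity-induced form breaks (chr13:93303757-93405129). The m6A libraries at 24 hours had 130, 154 and 169 CPM in PBS mice and 150, 167, 170, 202 and 276 CPM in IAKA mice (log2 fold change 0.35, SE 0.27). At 2 weeks PBS mice had 187, 208, 263, 291 and 339 CPM and IAKA mice 150 to 416 CPM with a median of 278 CPM (0.19, SE 0.29). The IAKA mice spread widely at 2 weeks, with 306, 396 and 416 CPM in mice 5, 9 and 7, 249 CPM in mouse 6, and 150 and 158 CPM in mice 42 and 21. In input libraries mice 5, 9 and 7 had 252, 281 and 353 CPM, and mice 6, 42 and 21 had 152, 132 and 140 CPM. The input log2 fold changes were 0.38 (SE 0.44) at 24 hours and 0.15 at 2 weeks.

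Plk2 encodes a polo-like kinase that lowers synaptic strength after long activity (chr13:110395044-110400844). At 24 hours the m6A libraries had 174, 204 and 245 CPM in PBS mice and 220, 227, 311, 312 and 363 CPM in IAKA mice. They differed by 0.43 on the log2 scale (SE 0.26, adjusted P 0.98 in edgeR). Voom called it (0.71, adjusted P 0.022). In input libraries at 24 hours the order was the other way round, with 251 CPM in the PBS mouse and 153, 172 and 194 CPM in IAKA mice, and 33.1% of all genes had every IAKA input library below that PBS library. Its log2 fold change was -0.23 (SE 0.24), and 0.02 with the 3 shallow input libraries kept. At 2 weeks it was 0.20 (SE 0.17) in m6A and 0.24 (SE 0.13) in input libraries, and the groups overlapped. No member lay below in every library in the other 3 comparisons, as did 1.09% of genes in m6A libraries at 24 hours, 0.334% at 2 weeks and 3.80% in input libraries at 2 weeks.

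Rgs4 encodes a GTPase-activating protein that shortens signalling by Gq- and Gi-coupled receptors (chr1:169741477-169747642). In m6A libraries at 24 hours PBS mice had 78.4, 96.8 and 149 CPM and IAKA mice 211, 222, 251, 257 and 292 CPM. The groups did not overlap, with IAKA higher, as for 2.62% of all genes tested. The log2 fold change was 1.18 (SE 0.28, unadjusted P 0.0018, adjusted P 0.34, edgeR). DESeq2 called Rgs4 (1.15, adjusted P 0.007) and so did voom (1.41, adjusted P 0.00052). Within library set 4 it was 1.44 (adjusted P 0.018, edgeR), and with the mouse number range as a block 1.29 (adjusted P 0.047, edgeR). With the library set as a block it was 1.44 and was not called (adjusted P 0.41, edgeR).

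At 2 weeks Rgs4 had 93.2 and 95.9 CPM in the m6A libraries of PBS mice 50 and 78 and 195, 237 and 257 CPM in those of PBS mice 3, 4 and 2. IAKA mice ran from 205 CPM over a median of 246 CPM to 339 CPM, so they overlapped with the PBS mice of set 5 and lay above those of set 4. Rgs4 differed by 0.65 on the log2 scale (SE 0.30, unadjusted P 0.05, adjusted P 0.87, edgeR). In PBS m6A libraries of both times the 4 mice numbered 21 to 98 had 78.4 to 96.8 CPM and the 4 numbered 1 to 9 had 149 to 257 CPM, the opposite order to that of Nptx1. In input libraries Rgs4 had 154 CPM in the PBS mouse and 164, 177 and 214 CPM in IAKA mice at 24 hours (0.56, SE 0.35). At 2 weeks it had 113, 197 and 200 CPM in PBS and 142 to 274 CPM (median 204 CPM) in IAKA mice (0.31, SE 0.21).

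Rheb encodes the small GTPase that switches on mTORC1, the kinase complex that raises protein synthesis (chr5:24802823-24842361). The 24-hour m6A libraries had 23.8, 35.5 and 50.9 CPM in PBS mice and 37.1, 41.1, 49.5, 50.7 and 54.3 CPM in IAKA mice (log2 fold change 0.36, SE 0.31). At 2 weeks it had 32.2, 34.3, 39.1, 49.8 and 55.3 CPM in PBS mice and 33.9 to 73.8 CPM (median 54.2 CPM) in IAKA mice (0.43, SE 0.23). The input log2 fold changes were 0.26 (SE 0.39) and 0.05, and input levels overlapped at both times.

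Single mice stood at the end of the range for many members at once. Among the 5 IAKA m6A libraries at 24 hours, mouse 79 had the highest level of 8 of the 10 members, all but Rgs4 and Nptx1, and mouse 8 the lowest of 5 (Arc, Nptx1, Nptx2, Ntrk2 and Rgs4). Among the 6 IAKA mice at 2 weeks, mouse 7 had the highest level of 7 members in input libraries and of 5 in m6A libraries. Bdnf, Homer1, Nptx2, Pcsk1 and Rheb were among those members in both kinds of library. Mouse 42 had the lowest level of 3 members in input and of 5 in m6A libraries, Homer1 and Plk2 in both.

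**Figure D4:**
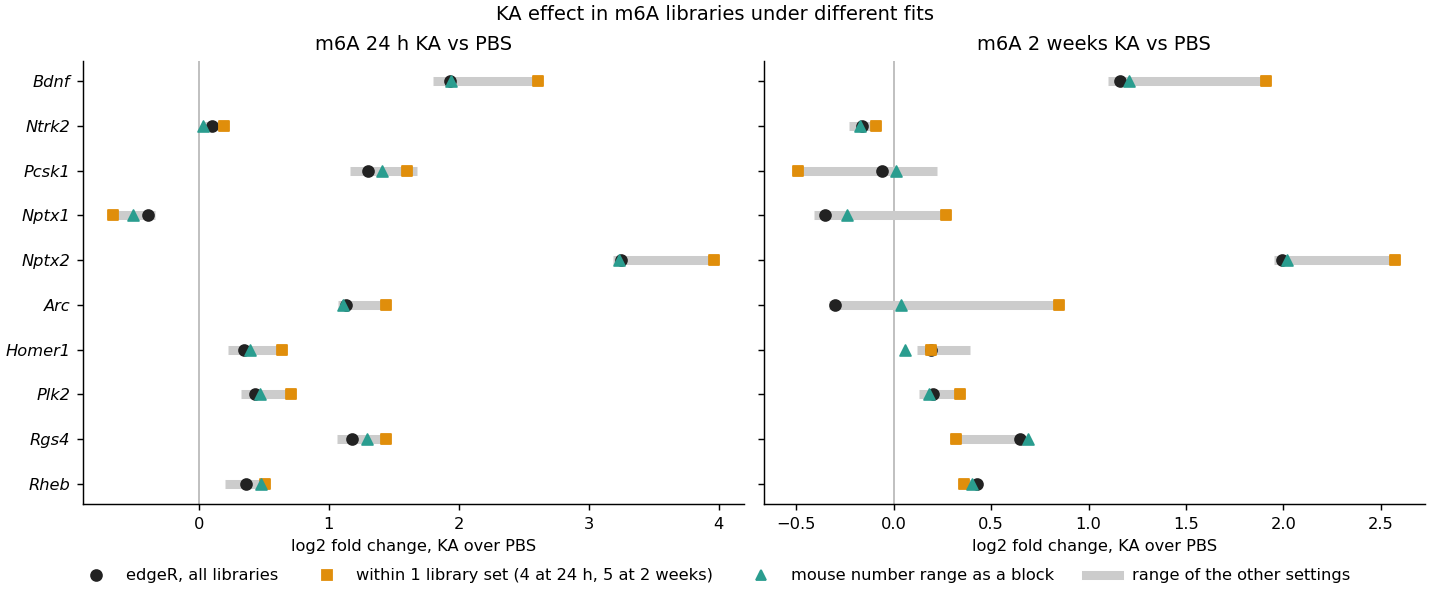
Log2 fold change (IAKA over PBS) of each member in m6A libraries in edgeR's fit (circles), for 24 hours and 2 weeks. Squares are fits within 1 library set (4 at 24 hours, 5 at 2 weeks). Triangles are fits with the mouse number range as a block. A grey bar runs from the lowest to the highest value over the remaining settings, without those that leave 1 library out. The bar of Nptx2 starts at 3.19 at 24 hours and at 1.95 at 2 weeks. Its squares, at 3.96 and 2.57, are its highest values. The bar of Arc at 2 weeks crosses 0.

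Whether the difference between IAKA and PBS mice changed from 24 hours to 2 weeks was tested as an interaction. By edgeR's quasi-likelihood test, no member passed in m6A libraries after adjustment (0 of 10), where 0.00573% of 17440 genes did. The interaction was below 0, meaning a lower log2 fold change (IAKA over PBS) at 2 weeks, for 8 of the 10 members. Its median was -0.39 over the members and -0.11 over all genes tested. Nptx2 was the only member under an unadjusted P of 0.05, at -1.27 (SE 0.58, unadjusted P 0.041, edgeR). The values for Arc, Pcsk1 and Bdnf were -1.44 (SE 0.79), -1.35 (SE 0.68) and -0.78 (SE 0.71). DESeq2 and voom called 0 members, with 2 and 3 at an unadjusted P under 0.05. Of the 17440 genes, 428 were under it in edgeR, 551 in DESeq2 and 1821 in voom. In input libraries 0 members passed in edgeR, DESeq2 or voom, with 0% of genes called in edgeR and 0, 0 and 1 members at an unadjusted P under 0.05. Of the 17644 genes tested in input libraries, 543, 616 and 2258 were under it, in that order.

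The level of each member in the pulldown relative to total RNA was first read in PBS mice. In edgeR's quasi-likelihood test with time as a covariate, 0 members passed after adjustment, against 2.60% of 17987 genes. At an unadjusted P under 0.05 in edgeR there were 4 members, against 13.1% of all genes higher and 9.20% lower in the pulldown. Arc had a log2 ratio of m6A to input of 1.16 (SE 0.52), Nptx1 1.04 (SE 0.37) and Ntrk2 0.32 (SE 0.13), and Rheb had -0.60 (SE 0.19). DESeq2 called Rheb (10.0% of all genes called) and voom called Arc, Nptx1, Pcsk1 and Rheb (29.6% of all genes). Without the m6A library of PBS mouse 1 at 24 hours, Rheb passed in edgeR (-0.68, adjusted P 0.039). The pulldown was of polyadenylated RNA and the input of total RNA, so enrichment of methylated RNA and selection for polyadenylated RNA cannot be told apart.

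These ratios set 8 m6A libraries of PBS mice against 4 input libraries, all 4 of mice 1 to 9. With the mouse as a block, which uses the 4 PBS mice that have both libraries, Arc was at -0.07 (SE 0.21) and Nptx1 at 0.20 (SE 0.17). Rheb stayed below 0 at -0.39 (SE 0.14, unadjusted P 0.026, adjusted P 0.21, edgeR), and Homer1 was at 0.29 (SE 0.11, unadjusted P 0.032, edgeR). Ntrk2 was at 0.28 (SE 0.12).

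Within single mice, 13 had both libraries, 9 of them IAKA and 4 PBS, and the ratio of m6A CPM to input CPM is given as a linear ratio. Over all 17987 genes the median of this ratio was 1.14, with medians between 1.05 and 1.31 in single mice, so a ratio above 1 is what most genes showed. Homer1 and Ntrk2 were above 1 in all 13 mice, from 1.04 over a median of 1.24 to 1.64 for Homer1 and from 1.08 over 1.30 to 1.78 for Ntrk2, as were 7.14% of all genes. Plk2 was above 1 in 12 mice (median 1.42), Bdnf in 11 (median 1.19), Nptx2 in 11 (median 1.26), Rgs4 in 10 (median 1.29) and Pcsk1 in 10 (median 1.56). Rheb was below 1 in 10 of 13 mice, from 0.72 over a median of 0.93 to 1.36, and 6.12% of all genes were below 1 in 10 or more mice. Arc had the widest range, from 0.35 in an IAKA mouse at 2 weeks to 2.16 with a median of 1.10, and Nptx1 ran from 0.85 over 1.07 to 2.12. The median ratio of Nptx2 was 1.27 in the 4 PBS mice and 1.26 in the 9 IAKA mice.

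**Figure D5:**
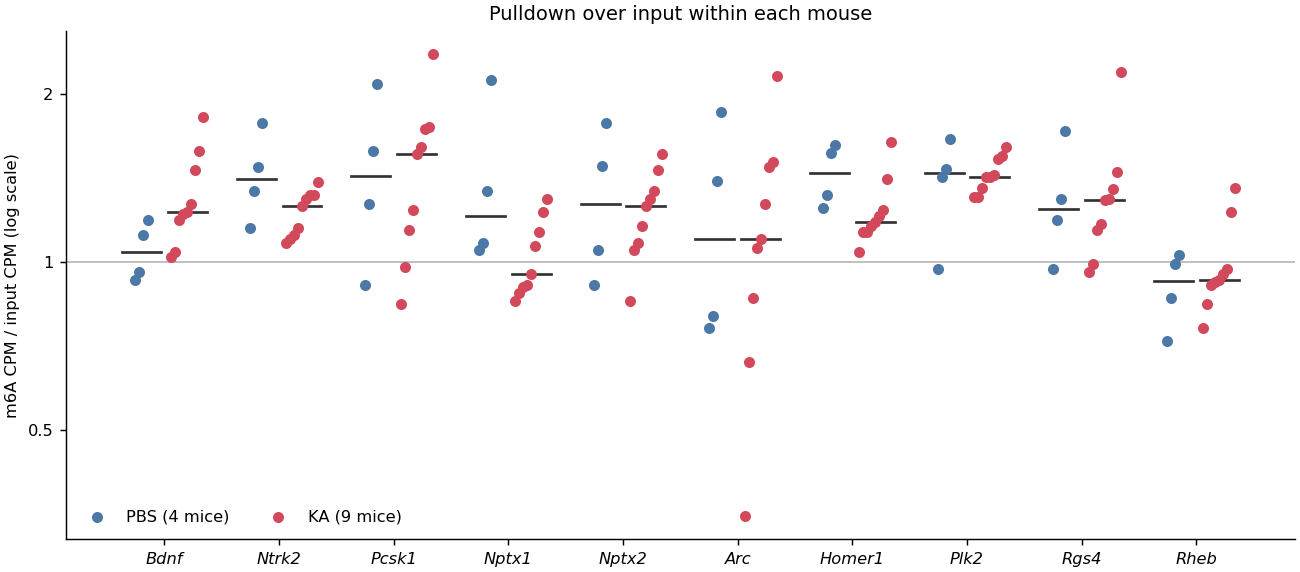
Ratio of m6A CPM to input CPM of each member in each of the 13 mice with both libraries, on a log axis, for 4 PBS and 9 IAKA mice, with bars at the medians. All points of Homer1 and Ntrk2 lie above 1, and 10 of the 13 points of Rheb lie below it, beside a median of 1.14 over all genes.

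Whether the difference between IAKA and PBS mice was of another size in m6A than in input libraries was tested as an interaction of assay and treatment. In edgeR's quasi-likelihood test 0 members passed at 24 hours or at 2 weeks, as did 0% of 22654 genes, and 0 members were under an unadjusted P of 0.05 at either time. DESeq2 and voom also called 0 members at both times, with 1 and 3 members under an unadjusted P of 0.05 at 24 hours and 2 and 0 at 2 weeks. Of the 22654 genes, 149 were under it in edgeR, 184 in DESeq2 and 1677 in voom at 24 hours. The numbers at 2 weeks were 527, 577 and 1386. The interaction for Nptx2 was 0.92 (SE 0.89) at 24 hours and -0.38 (SE 0.64) at 2 weeks, and with the mouse as a block -0.04 (SE 0.39) and -0.10 (SE 0.26). For Arc at 2 weeks it was -1.47 (SE 0.76), and -0.37 with the block. For Nptx1 at 2 weeks it was -1.25 (SE 0.63), and with the block -0.51 (SE 0.21, unadjusted P 0.027, adjusted P 0.95, edgeR).

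Around the 10 members stand 119 genes in 8 lists of their partners, of which 115 were tested in each comparison except input at 2 weeks, where 113 were. By edgeR's quasi-likelihood test none passed after adjustment in any comparison of IAKA with PBS. At an unadjusted P under 0.05 there were 11 higher and 5 lower in IAKA mice in m6A libraries at 24 hours and 6 and 4 at 2 weeks. In input libraries there were 12 higher and 10 lower at 24 hours and 27 and 8 at 2 weeks. The matching shares of every gene tested, with IAKA above PBS first, were 4.02% and 1.29% for the earlier m6A comparison. For the later m6A comparison they were 2.85% and 2.16%. The input shares were 4.99% and 4.24% for the earlier time, then 8.41% and 5.69% for the later. Whether the list counts exceed these shares was not tested.

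The list of 16 other activity-induced effectors lay highest, and like the other lists it was chosen with earlier results of these data known. Its median log2 fold change was 1.27 in m6A libraries and 0.81 in input libraries at 24 hours, and 0.27 and 0.71 at 2 weeks, beside the all-gene medians given above. At 24 hours 8 of the 16 were higher at an unadjusted P under 0.05 in edgeR in m6A libraries and 7 in input libraries, and none was lower. Of all genes 4.02% and 4.99% were higher at that level. Npas4, a transcription factor of neuronal activity chosen after its values were seen, had 1.11 to 3.51 CPM in the 3 PBS m6A libraries and 6.65 to 34.7 CPM (median 16.2 CPM) in the 5 IAKA libraries at 24 hours. It differed by 3.07 on the log2 scale at 24 hours (SE 0.64, adjusted P 0.22 in edgeR) and by -0.96 at 2 weeks. In m6A libraries at 2 weeks 9 of the 16 were above 0. At an unadjusted P under 0.05 in edgeR 3 were higher and 2 lower there, against 2.85% and 2.16% of all genes. In input libraries at 2 weeks 10 of the 16 were higher and 1 lower at an unadjusted P under 0.05 in edgeR, against 8.41% and 5.69% of all genes. The smallest adjusted P there was that of Vgf, a secreted neuropeptide precursor that was also chosen after its values were seen (log2 fold change 1.76, adjusted P 0.24, edgeR).

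The partners of Homer1 at the postsynaptic density lay below 0 in m6A libraries, where 0 of 14 were above 0 at either time, with a median log2 fold change of -0.46 at both. In input libraries 8 of 14 were above 0 at 24 hours and 10 of 14 at 2 weeks, with medians of 0.11 and 0.34. At 24 hours the smallest adjusted P in m6A libraries was that of Grm5, the metabotropic glutamate receptor mGluR5, chosen after its values were seen (-0.74, adjusted P 0.55, edgeR). The list of AMPA receptor subunits, their auxiliary proteins and Nptxr, which act with the pentraxins, had 2 of 13 above 0 in m6A libraries at 24 hours and 3 of 13 at 2 weeks, with medians of -0.33 and -0.24. In input libraries the medians were -0.07 and 0.07. The 8 excitatory neuron markers had medians of -0.17 and -0.36 in m6A and 0.05 and 0.29 in input libraries. The 5 dentate granule cell markers had -0.68 and -0.25 in m6A and -0.17 and 0.39 in input libraries, and the 7 CA pyramidal cell markers -0.49 and -0.12 in m6A and 0.04 and 0.37 in input libraries. The part of these markers in the list values was not tested.

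The other lists are given by their medians. For m6A at 24 hours and 2 weeks and input at 24 hours and 2 weeks, in that order, the neurotrophin and propeptide processing list had medians of -0.07, -0.09, 0.18 and 0.22. The partners of Arc had -0.16, -0.07, -0.21 and 0.21, and the other RGS proteins 0.18, 0.13, 0.25 and 0.12. The Rheb and mTORC1 list had -0.03, -0.15, 0.07 and -0.03, and the polo-like kinases with Plk2 substrates -0.08, -0.43, 0.34 and 0.05.

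For Nptx2, Bdnf and Arc the genes of most similar pattern were taken by Pearson's correlation of log2 CPM over the 19 m6A libraries, among 17440 genes. For Nptx2 they were Osmr (0.89), Wwtr1 (0.87) and Slc14a1 (0.84), which encode the oncostatin M receptor, a transcriptional coactivator and a urea transporter. Within the 11 IAKA libraries these correlations were 0.81, 0.88 and 0.77, and within the 8 PBS libraries 0.22, 0.20 and 0.21. For Bdnf they were Skil (0.93), Scg2 (0.89) and Prss23 (0.88), with 0.94, 0.90 and 0.85 within the 11 IAKA libraries and 0.66, 0.32 and 0.85 within the 8 PBS libraries. For Arc they were Nr4a1 (0.85), Dnajb5 (0.79) and Elk4 (0.79), with 0.70, 0.69 and 0.82 within the 11 IAKA libraries and 0.92, 0.95 and 0.91 within the 8 PBS libraries. The libraries share treatment, library set and cell makeup, so these values are a description.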

How the data were processed

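RNA was extracted from hippocampus, m6A was immunoprecipitated, and libraries were made with a stranded total RNA kit. The deposited tables hold unnormalized counts that the authors made, with 1 column per library and lane, and the 4 lanes were summed here to 35 libraries. The build is mm10 per the submitters' processing notes. For the aligner, the counter and strand, nothing is stated in the sources used here, so overlapping genes may share reads. The assay was named in the columns of 8 libraries and inferred from the column prefix for 27, and 8 columns were not used. Input libraries under 100000 counts were left out (3).

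IAKA and PBS groups were compared with edgeR 4.0.16, run in R 4.3.3 (filterByExpr, TMM scaling, robust quasi-likelihood fit, Benjamini-Hochberg over all genes tested, threshold 0.05), after a check on simulated data. Standard errors were taken from the log2 fold change and the F statistic. Input at 24 hours was a contrast in a fit of all 4 input groups. Alternatives were DESeq2 1.42.0, limma 3.58.1 voom with sample quality weights, other scaling, filters and groups in the fit, leaving out mitochondrial and ribosomal RNA genes, the library set and the mouse as blocks, and each library left out in turn. Fits within a library set, the set as a block for input libraries and the mouse number range as a block were chosen after seeing the data.

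The mouse number pairs m6A and input libraries because both came from 1 animal by the labels. In 12 of the 13 mice with both, the correlation of their deviations from the group means ran from -0.01 to 0.86 (median 0.30) and was over 0.1 in 9.

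The members, lists and markers were chosen with earlier results of these data known. The rule for named genes took the 10 members, up to 3 genes per list past an adjusted P of 0.05 (there were none, so Npas4, Vgf and Grm5 stand outside it), and the 3 genes most correlated with Arc, Bdnf and Nptx2. Tables and plots used Python 3.11.15, pandas 2.3.3, numpy 2.4.6 and matplotlib 3.10.9. CPM is the count per 1000000 counts of the library.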

Additional observations from a re-analysis of the deposited data

Results flagged for a closer look

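Of 40 groups of 4 to 10 libraries tested for a sample far from the others, 2 held one, and chance gives about 1 in 20 such groups. Both concern IAKA mouse 8 at 24 hours in the m6A libraries. Its Nptx1 level was 96.9 CPM, against 265 to 359 CPM in the other 4 mice. Its Ntrk2 level was 258.93 CPM, against 493 to 617 CPM. In the same library the excitatory neuron marker sum was 1301 CPM, against 4342 to 4967 CPM in the other 4, and the astrocyte marker sum was 1098 CPM, and their part in the low values was not tested. The input library of this mouse had marker sums of 1414 and 877.1 CPM.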

How the results depend on the processing

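Against 0 members called in each comparison, m6A at 24 hours gave 5 with voom, 3 within library set 4, 2 with DESeq2 or the mouse number range as a block and 1 with no filter, with all m6A libraries in 1 fit or at a threshold of 0.1. DESeq2 called 1 in m6A at 2 weeks and in input at 2 weeks, where voom called 2. For m6A over input in PBS mice DESeq2 called 1 and voom 4. With 1 library left out the counts ran from 0 to 1 in m6A at 24 hours and in PBS mice and were 0 in the other comparisons that could be computed. The only PBS input library at 24 hours cannot be left out. Over all genes the calls without IAKA mouse 8 were 45 in m6A and 180 in input at 24 hours, against 1 and 0. Voom called 1120 in m6A and 1076 in input at 24 hours, and 342 in input at 2 weeks. The PBS comparison called 467 genes, 187 with the replicate block and 141 to 1196 with 1 library left out.

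Of 490 values of single members under other settings 445 kept direction and side of the threshold, 23 passed it and 22 turned sign; of 430 with 1 library left out 419, 2 and 9 did so. None of the values that turned sign passed the threshold. In m6A at 2 weeks Arc was 0.66 with voom, 0.83 with the library set as a block, 0.85 within set 5 and 0.04 with the mouse number range as a block, and -0.49 to 0.27 with 1 library left out. Nptx1 was 0.25 with the set as a block and 0.27 within set 5. Pcsk1 was 0.22 with voom, 0.01 with the number range as a block and -0.28 to 0.39 with 1 library left out. In input at 24 hours Nptx1 was -0.15 with the number range as a block, Pcsk1 -0.02 with voom and -0.03 to 0.78 with 1 library left out, and Rheb -0.05 with library size scaling. Plk2 was 0.02 with the shallow libraries kept and 0.08 over the 7 libraries of 24 hours alone. In input at 2 weeks Homer1 was -0.15 with the set as a block, -0.14 in libraries with no prefix and -0.01 to 0.25 with 1 library left out. Ntrk2 was -0.02 with the number range as a block and -0.05 to 0.11 with 1 library left out. Rheb was -0.22 with the set as a block and in libraries with no prefix, and -0.14 to 0.14 with 1 library left out. With the mouse as replicate block, m6A over input in PBS mice was -0.07 for Arc, -0.16 for Bdnf, 0.11 for Rgs4 and 0.26 for Pcsk1, and the block changed no call of a member. The causes were not tested. Library size scaling moved the median of all genes from 0.27 to -0.04 in input at 24 hours.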
